A study of Homo sapiens with 6 samples.

Results

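The genes described here are 10 genes of double-stranded RNA sensing and RNA silencing in HCT116 cells, an established colorectal carcinoma cell line. They were taken by symbol, through the stable part of the Ensembl identifier, from the 60240 genes of the count table, and each had 1 row: RIGI, IFIH1, DHX58, MAVS, TLR3, ZBP1, EIF2AK2, ADAR, DICER1 and AGO2. All but ZBP1 had enough counts to be tested, which left 9. The RNA was measured by sequencing of polyA RNA in 3 libraries from wild-type cells (WT) and 3 libraries from cells in which LSD1, the H3K4 demethylase encoded by KDM1A, was knocked out (LSD1 KO). Cas9 was directed to exon 1 of LSD1, cells were selected with puromycin and single clones were expanded. The methods describe the study's experiments in general as done with biological replicates, but the sources used here do not say whether the 3 LSD1 KO libraries came from 1 clone or what separates the libraries of a group. The p-values measure the spread between these libraries, whichever kind it is.

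Double-stranded RNA is rare in a healthy cytoplasm, and cells read it as a sign of infection. RIG-I and MDA5, encoded by RIGI and IFIH1, unwind or coat such RNA and then engage the mitochondrial adaptor MAVS, which switches on interferon genes. LGP2, encoded by DHX58, belongs to the same helicase family but lacks the signalling domains. TLR3 detects double-stranded RNA in endosomes, ZBP1 binds its left-handed Z form, and PKR, encoded by EIF2AK2, halts translation once bound. ADAR edits adenosine to inosine in paired RNA, which keeps the cell's own duplexes from being sensed. In the silencing branch, DICER1 cuts short hairpins to microRNAs and AGO2 holds the guide strand and can slice its target. Several of the sensors are themselves induced by interferon. LSD1 loss has been linked to this pathway in other tumour cells, and the comparison of LSD1 KO with WT here shows whether its genes changed in HCT116 cells.

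Because RIGI and IFIH1 were the members that differed most between the groups, the regions around their annotated starts are shown first. They are the RefSeq promoter windows on GRCh38.p14, from 250 bases before the start into the first 50 transcribed bases. The RIGI window is chr9:32526147-32526446 and the IFIH1 window is chr2:162318635-162318934, both on the minus strand and printed 5′ to 3′. Capitals mark 2 copies of GAAA, or of its reverse complement TTTC, with 2 bases between them, which is the core of the interferon-stimulated response element, or with 1 base between them.
RIGI: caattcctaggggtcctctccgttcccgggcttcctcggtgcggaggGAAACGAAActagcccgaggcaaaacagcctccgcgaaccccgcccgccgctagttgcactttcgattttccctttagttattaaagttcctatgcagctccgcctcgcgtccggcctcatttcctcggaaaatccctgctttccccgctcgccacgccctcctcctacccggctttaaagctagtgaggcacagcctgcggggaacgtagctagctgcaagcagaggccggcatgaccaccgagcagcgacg
IFIH1: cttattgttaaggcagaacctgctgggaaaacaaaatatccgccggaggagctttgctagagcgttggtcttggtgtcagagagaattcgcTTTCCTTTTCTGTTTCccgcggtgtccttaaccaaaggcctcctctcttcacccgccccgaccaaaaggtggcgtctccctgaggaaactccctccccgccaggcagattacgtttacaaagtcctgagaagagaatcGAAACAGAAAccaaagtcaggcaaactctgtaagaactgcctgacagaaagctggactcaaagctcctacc

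Promoter windows were found for 7 of the 10 genes. These genes had 13 windows, since ADAR and DICER1 have several starts. The repeat with 2 bases between its copies was present in 3 of the 13 windows, those of IFIH1, TLR3 and EIF2AK2, and in 3.57% of the 34943 windows of the same length in the table, both strands counted. IFIH1 held 3 matches, 2 of which overlapped at positions -159 to -144 from the start and 1 of which lay at -21 to -12. In TLR3 and EIF2AK2 the match spanned the start, as the stretches below show, with the match in capitals (TLR3 on the plus strand, chr4:186069132-186069181, and EIF2AK2 on the minus strand, chr2:37156957-37157006).
TLR3: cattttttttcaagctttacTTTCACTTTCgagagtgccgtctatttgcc
EIF2AK2: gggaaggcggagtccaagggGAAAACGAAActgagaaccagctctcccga

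The RIGI window had no match with 2 bases between the copies. It held 1 with a single base between them, a spacing searched after the sequence had been seen, which occurred in 3.12% of all windows. None of the windows of MAVS, ADAR (3 starts) and DICER1 (5 starts) had either match. These are letters in a window, and no binding was measured in the files used here.

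In WT cells, expression was compared between the genes only per length, as CPM (counts scaled to the normalized library size) per kilobase of the canonical transcript. ADAR stood highest, at 48.2 ± 13.3 CPM per kb (SD, n = 3 libraries), and its range of 34.0 to 60.3 did not meet that of any other member. AGO2 at 19.8 ± 6.07 and MAVS at 19.7 ± 4.91 CPM per kb followed, with ranges that overlapped each other and that of AGO2 reaching EIF2AK2. EIF2AK2 at 10.7 ± 2.64, DICER1 at 8.83 ± 3.12 and RIGI at 8.01 ± 0.223 CPM per kb overlapped in turn. IFIH1, at 6.23 ± 0.635 CPM per kb, overlapped with DICER1 but not with RIGI. TLR3 at 0.957 ± 0.385 and DHX58 at 0.884 ± 0.0845 CPM per kb were low and could not be ordered. With the union of exons as the length, ADAR had the highest mean at 26.1 CPM per kb, but its range of 18.4 to 32.6 overlapped those of MAVS and AGO2, and IFIH1, at 4.27, stood above RIGI, at 3.58. In WT cells there was much transcript of the editor, the adaptor and AGO2, a moderate level of both signalling receptors and little of TLR3 and LGP2.

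ZBP1 was at or under the floor of 3 counts in each library. The WT libraries had 1, 0 and 1 counts, the LSD1 KO libraries had 3, 0 and 2, and 3 counts corresponded to between 0.0994 and 0.114 CPM. No fold change is given for ZBP1. A difference below this depth was not detectable, and the limit covers counting error only.

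**Figure D1:**
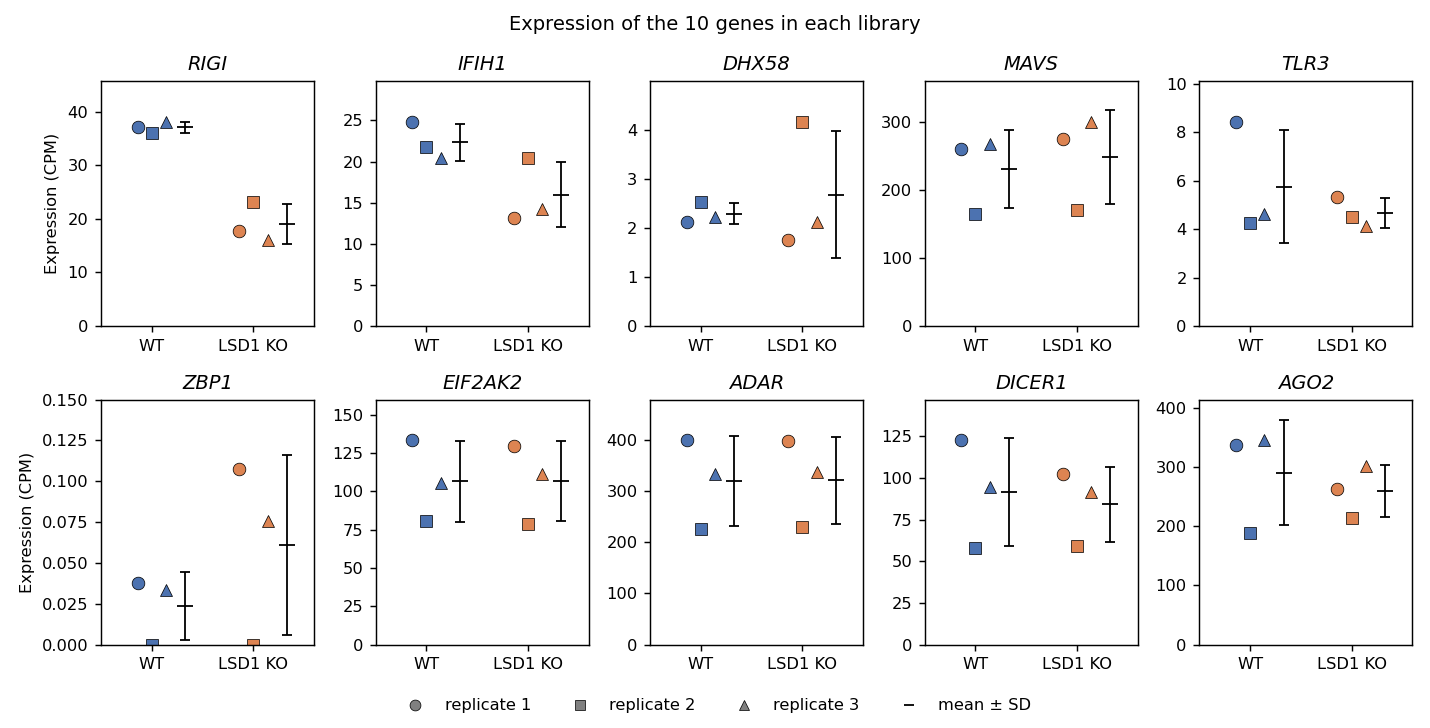
Expression of each of the 10 genes in CPM (y axis, linear from 0, own scale per panel) in the WT and LSD1 KO libraries, with 1 point per library, shaped by replicate number, and a bar for the mean ± SD of 3 libraries. RIGI is the gene whose LSD1 KO libraries, from 16.1 to 23.2 CPM, all lie below its WT libraries, from 36.04 to 38.1 CPM, while the squares of replicate 2 are the lowest of their group for MAVS, EIF2AK2, ADAR, DICER1 and AGO2 in both groups.

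RIGI differed most between the groups. The gene lies on chromosome 9 from 32455302 to 32526196 (GRCh38). Its expression was 37.1, 36.04 and 38.1 CPM in WT replicates 1, 2 and 3 and 17.7, 23.2 and 16.1 CPM in the LSD1 KO replicates. All LSD1 KO libraries were below all WT libraries, and the LSD1 KO mean was 51.2% of the WT mean (exact permutation test over libraries, two-sided, p = 0.1, which is the lower limit for 3 libraries against 3). Groups that do not overlap were seen for 7.74% of the 17672 genes tested, with LSD1 KO below WT in 3.51% and above it in 4.23%. The log2 fold change of RIGI was -0.97 (standard error 0.18, unadjusted p = 0.000616), but it did not pass a q value under 0.1 after Benjamini-Hochberg adjustment over all genes (q value 0.443 from edgeR). With the replicate number as a block in the model, RIGI fell by 0.98 on the log2 scale (standard error 0.13, q value 0.0214 from edgeR). It was also called with DESeq2's Wald test (log2 fold change -0.97, standard error 0.23, q value 0.0139). LSD1 KO minus WT within replicate numbers 1, 2 and 3 was -1.07, -0.64 and -1.25 on the log2 scale. Pair 2 held the smallest difference, since the LSD1 KO library of that pair was the highest of its group. RIGI shares exon sequence on the same strand with ENSG00000288684, which was not analysed here.

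IFIH1 came next, on chromosome 2 from 162267074 to 162318684. It was read at 24.8, 21.8 and 20.4 CPM in WT and at 13.2, 20.4 and 14.3 CPM in LSD1 KO. The groups overlapped by 1 library, LSD1 KO replicate 2, which was level with WT replicate 3. The mean in LSD1 KO cells was 71.5% of that in WT cells. The log2 fold change was -0.48 (standard error 0.21, q value 0.999 from edgeR) without the block and -0.50 (standard error 0.16, q value 0.228) with it, so IFIH1 was not called in either fit. By pair, the log2 difference was -0.92, -0.090 and -0.51. When pair 2 was left out of the fit with the block, IFIH1 fell by 0.73 on the log2 scale (standard error 0.14, q value 0.00177 from edgeR). That fit called 1055 of 18043 genes, against 282 of 17672 with all pairs. IFIH1 was called under no other alternative.

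DHX58, the third gene of the receptor family, lies on chromosome 17 from 42101411 to 42112714 and was measured from 49 to 113 counts per library. Its expression was 2.12, 2.54 and 2.22 CPM in WT and 1.75, 4.16 and 2.12 CPM in LSD1 KO. The highest library was LSD1 KO replicate 2, and the other LSD1 KO libraries lay near or below the low end of the WT range. The log2 fold change was 0.23 (95% interval -0.65 to 1.104, q value 0.999 from edgeR), and its sign turned to -0.26 without LSD1 KO replicate 2. DHX58 therefore gave no direction. Across the 3 receptors, LSD1 KO replicate 2 was above the other LSD1 KO libraries each time. Whether RIGI, IFIH1 and DHX58 differed from each other in response was not tested.

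Without the block, 0 of the 9 genes passed the threshold of 0.1 on the q value, against 0.00566% of all genes, which is 1 gene, KDM1A itself. At an unadjusted p under 0.05, RIGI and IFIH1 were lower in LSD1 KO, 2 of 9, against 1.23% of all genes in that direction. IFIH1 lay at the edge of this cutoff. It stayed under the cutoff with upper quartile scaling, with every counted gene kept and with the block. It did not with RLE scaling, the filter of 10 counts in every library or DESeq2's Wald test. The members were chosen with earlier results of these data known, so their shares are described here and not tested. With the block, 1 of 9 was called, RIGI, against 1.6% of all genes, of which 0.549% were lower and 1.05% higher in LSD1 KO. DESeq2's Wald test, run without the filter for low genes, called 1 of 10 members, RIGI, against 0.281% of 33832 genes. RIGI and IFIH1 were lower in all 3 pairs, which held for 17.5% of all genes, and 5 of the 9 had a log2 fold change below 0, against 49.9% of all genes. The median log2 fold change of the 9 genes was -0.12, and that of all 17672 genes was 0.00082. The check of the knockout itself was clear, since KDM1A had 223.1 ± 8.78 CPM in WT and fell to 28.4 ± 1.30 CPM in LSD1 KO (SD over 3 libraries, q value 0.000451 from edgeR).

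**Figure D2:**
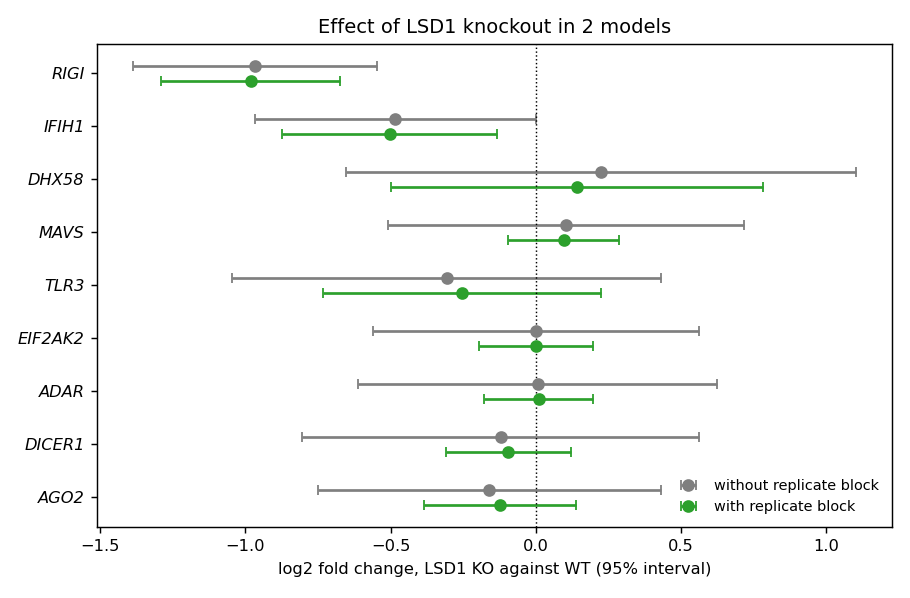
Log2 fold change of LSD1 KO against WT (x axis) for the 9 genes tested, as point and 95% interval from edgeR without the replicate block (grey) and with it (green). The intervals of RIGI, from -1.39 to -0.55 without the block and from -1.29 to -0.68 with it, lie below 0, and those of EIF2AK2 and ADAR are centred near 0 in both fits.

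The adaptor and the endosomal receptor did not pass the test. MAVS, on chromosome 20 from 3846834 to 3876118, was read at 260.8, 164.7 and 267.8 CPM in WT and at 274.4, 170.9 and 300.04 CPM in LSD1 KO. The groups overlapped over most of their range. Its log2 fold change was 0.10 (95% interval -0.51 to 0.72) without the block and 0.097 (-0.094 to 0.29) with it, with q values of 0.999 and 0.668 from edgeR. Within replicate numbers 1, 2 and 3, MAVS differed by 0.073, 0.053 and 0.16 on the log2 scale, so it was higher in LSD1 KO in each pair. The share of all genes higher in all 3 pairs was not computed, while 17.5% were lower in all 3. With the block and the correction for length given below, the log2 fold change of MAVS was 0.050. TLR3, on chromosome 4 from 186069156 to 186088073, was read at 8.42, 4.24 and 4.61 CPM in WT and at 5.33, 4.49 and 4.13 CPM in LSD1 KO. WT replicate 1 stood apart from the other 5 libraries, and without it the log2 fold change moved from -0.31 to 0.072. The 95% interval of TLR3 with the block ran from -0.73 to 0.23.

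PKR is a sensor that acts on translation and ADAR restrains sensing, and the mean level of each was close in the 2 groups. EIF2AK2, on chromosome 2 from 37099210 to 37156980, was read at 133.4, 80.7 and 105.7 CPM in WT and at 129.9, 78.5 and 111.5 CPM in LSD1 KO. The LSD1 KO mean was 100.1% of the WT mean. ADAR, on chromosome 1 from 154582057 to 154627997, was read at 398.5, 224.7 and 333.5 CPM in WT and at 396.9, 228.6 and 335.9 CPM in LSD1 KO, and its means were in a ratio of 100.5%. In each gene the 3 libraries of a group spread over a wide range, and that spread was repeated in the other group in the same order of replicate numbers. With the block, the 95% interval of the log2 fold change was -0.20 to 0.20 for EIF2AK2 and -0.18 to 0.20 for ADAR, which bounds a difference more tightly than the fit without it (-0.56 to 0.56 and -0.61 to 0.63). The counts are per gene, so the interferon-inducible long form of ADAR and its constitutive short form cannot be told apart. Exons of EIF2AK2 overlap those of GPATCH11 on the opposite strand, which had 386 to 589 counts.

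The silencing factors also did not pass the test. DICER1, on chromosome 14 from 95086228 to 95158010, was read at 122.5, 58.0 and 94.5 CPM in WT and at 102.4, 59.1 and 91.5 CPM in LSD1 KO. The log2 fold change with the block was -0.094 (95% interval -0.31 to 0.12, q value 0.718 from edgeR). AGO2, on chromosome 8 from 140520156 to 140642313, was read at 336.9, 187.5 and 344.6 CPM in WT and at 262.6, 213.3 and 301.5 CPM in LSD1 KO. Its log2 fold change with the block was -0.12 (95% interval -0.38 to 0.14, q value 0.694 from edgeR). By pair, AGO2 differed by -0.36, 0.19 and -0.19 on the log2 scale, so pair 2 went the other way. AGO2 was called under 1 alternative, the fit with the block and without pair 2 (log2 fold change -0.29, standard error 0.095, q value 0.0920 from edgeR). That fit called 1055 of 18043 genes. DICER1 shares exon sequence with its antisense RNA DICER1-AS1, which had 84 to 153 counts. The strand setting of the counting was not given in the sources used here, and the library kit named in the labels does not mark strand.

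Replicate 2 was set against the other replicates of its group, since it was often the lowest library. In WT, replicate 2 differed from the mean of replicates 1 and 3 by -0.68 for MAVS, -0.56 for EIF2AK2, -0.70 for ADAR, -0.89 for DICER1 and -0.86 for AGO2 on the log2 scale. In LSD1 KO, the same differences were -0.75, -0.62, -0.68, -0.71 and -0.40. All 5 were negative in both groups. RIGI and IFIH1 showed another pattern, with -0.060 and -0.047 in WT but 0.46 and 0.58 in LSD1 KO. DHX58 had 0.23 in WT and 1.11 in LSD1 KO, and TLR3 had -0.56 and -0.061.

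The replicate 2 differences of all tested genes were taken from log2(CPM + 0.5), and those of the members above from log2 CPM. Over all tested genes the differences went along with transcript length. In WT, their median was 0.25 for the 7642 genes with a canonical transcript of at most 2500 bases and -0.56 for the 613 genes above 10000 bases, and in LSD1 KO these medians were 0.13 and -0.40. MAVS, DICER1 and AGO2 have canonical transcripts of 11731, 10384 and 14595 bases, EIF2AK2 has 9975 and ADAR has 6610. Genes from 5000 to 7500 bases had medians of -0.24 in WT and -0.16 in LSD1 KO, and those from 7500 to 10000 bases had -0.42 and -0.29. ADAR and EIF2AK2 lay below the median of their bin in both groups. RIGI, IFIH1 and DHX58 have 4628, 3581 and 2591 bases, and genes from 2500 to 5000 bases had medians of -0.0096 in WT and -0.015 in LSD1 KO. Between genotypes the medians of the log2 fold change spanned less, but they rose from bin to bin with length. They went from -0.011 in the shortest bin to 0.044 in the longest, and from -0.0074 to 0.057 with the block. After a correction for length, added after the data were seen, the log2 fold change of RIGI was -0.97 without the block (q value 0.381) and -0.997 with it (q value 0.00914, both from edgeR). With the block, the correction moved MAVS from 0.097 to 0.050, DICER1 from -0.094 to -0.14 and AGO2 from -0.12 to -0.17. Their q values after the correction were from 0.423 to 0.846 (edgeR). RNA quality was not measured in the files used here, and its part in the replicate differences was not tested.

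**Figure D3:**
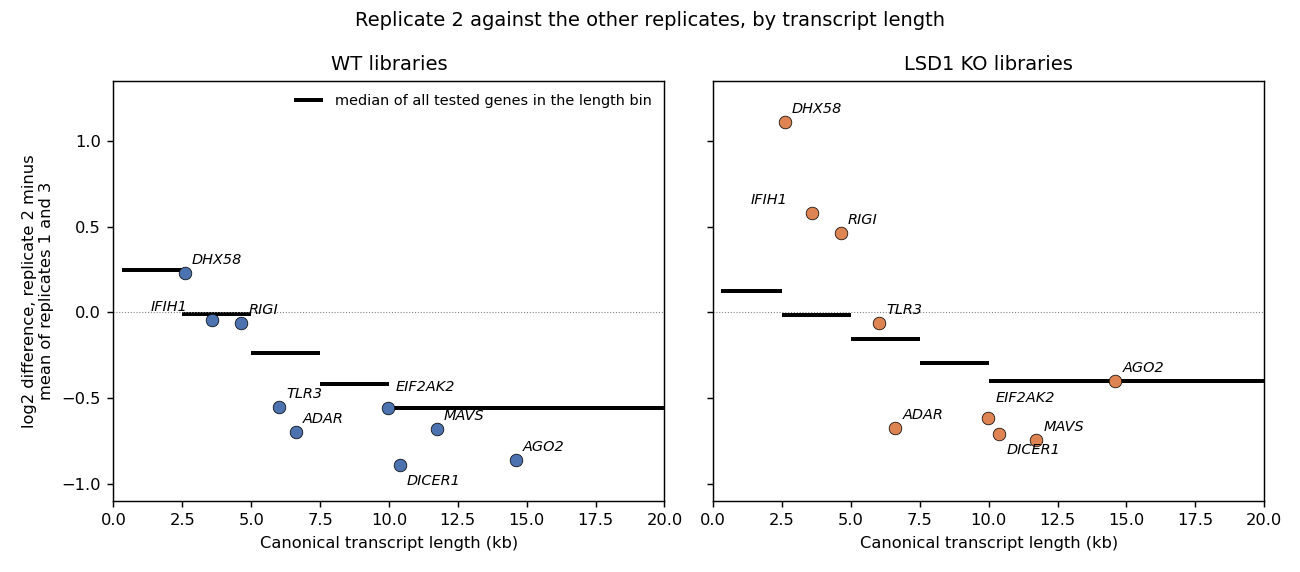
Log2 difference between replicate 2 and the mean of replicates 1 and 3 (y axis) against the length of the canonical transcript in kb (x axis) in WT (left) and LSD1 KO libraries (right), with the 9 genes tested as points and the median of all tested genes in 5 length bins as black lines. MAVS, EIF2AK2, ADAR and DICER1 lie between -0.89 and -0.56 in both groups, whereas RIGI and IFIH1 lie near the median of their length bin in WT and, with DHX58, well above it in LSD1 KO, between 0.46 and 1.11. The points are from log2 CPM and the medians from log2(CPM + 0.5), on which scale DHX58 had 0.94 in LSD1 KO.

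The other genes of the pathway were taken from lists by branch, 126 of which were tested outside the members. None passed a q value under 0.1 without the block (edgeR), and 5 had an unadjusted p under 0.05, STING1 and RNF125 higher and TANK, DDX60 and WTIP lower, against 3.12% of all genes. With the block, 2 of the 126 passed, 1 higher and 1 lower, against 1.6% of all genes. The median log2 fold change of the 126 was -0.016. The lists were also chosen with earlier results of these data known, so these shares are described and not tested.

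The relay of the RIG-I-like receptors held 31 tested genes, with a median log2 fold change of -0.0068. STING1, the adaptor of cytosolic DNA sensing that also meets MAVS signalling, was 16.7 ± 1.38 CPM in WT and 24.9 ± 1.87 CPM in LSD1 KO. It rose in the fit with the block (log2 fold change 0.58, standard error 0.12, q value 0.0856 from edgeR). RNF125, a ubiquitin ligase that marks RIG-I for degradation, had a log2 fold change of 0.36 (q value 0.999 from edgeR). ZC3HAV1, the antiviral zinc finger protein ZAP, had -0.46, and TANK, a scaffold of the kinase TBK1, had -0.36. Neither passed the threshold with the block (q values 0.101 and 0.126 from edgeR). In the other branches, the PKR branch (12 tested, median 0.0077) was led by EIF2AK4 and PPP1R15B on the higher side and by PPP1R15A and ATF4 on the lower side, within -0.32 to 0.18. The TLR3 relay (6 tested, median 0.074) ran from -0.045 to 0.37, with the endosomal proteases CTSB and CTSL highest and WDFY1 at -0.014. CTSL was 26.6, 47.1 and 32.6 CPM in WT and 24.6, 75.1 and 28.6 CPM in LSD1 KO, so it was higher only in replicate 2. With the block its log2 fold change was 0.13 (q value 0.783 from edgeR).

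The partners of ZBP1 in necroptosis, 5 tested, ran from -0.18 for MLKL to 0.068 for RIPK1, with CASP8 at -0.089. RIPK3, the kinase that ZBP1 engages, had 1 count in a single WT library and 0 in the other 5 libraries, so that both ends of that step were at or under the floor. Among the other RNA-binding and editing proteins, 25 were tested, with a median of -0.047. DDX60, an interferon-induced helicase that acts with RIG-I, was 34.5, 24.8 and 30.7 CPM in WT and 19.6, 18.8 and 15.9 CPM in LSD1 KO, with all LSD1 KO libraries below all WT libraries. DDX60 fell in the fit with the block (log2 fold change -0.72, standard error 0.13, q value 0.0539 from edgeR) but not without it (q value 0.769). XRN1 (0.24), SKIC2 (0.23) and SFPQ (-0.32) did not pass in either fit.

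MicroRNA processing (14 tested, median -0.019) and the silencing effectors (31 tested, median 0.047) had 0 genes called with or without the block. DGCR8, the partner of DROSHA in cutting primary microRNAs, had a log2 fold change of -0.34. RAN, which drives export of the cut hairpins, had -0.21, while TUT7 and DIS3L2 had 0.10 and 0.087. WTIP had -0.57 and the helicase MOV10 had -0.29, whereas PAN2 had 0.22 and TNRC6C had 0.20, the highest among silencing effectors with a mean of at least 1 CPM (all q values 0.999 from edgeR). The AGO2 paralogs AGO1, AGO3 and AGO4 had log2 fold changes of -0.13, -0.0038 and -0.24, and DROSHA had -0.012. DESeq2's Wald test with the block was run on all genes with a count. In that fit, 6 of 137 pathway genes passed, against 1.75% of 33857 genes. STING1 and CTSB were higher and ZC3HAV1, TANK, DDX60 and SFPQ lower. Some low genes, such as RIPK3 and the member ZBP1, were given no q value in that fit and could not pass. Such genes stay in the totals, so the shares are not a like comparison and show no excess of pathway genes.

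**Figure D4:**
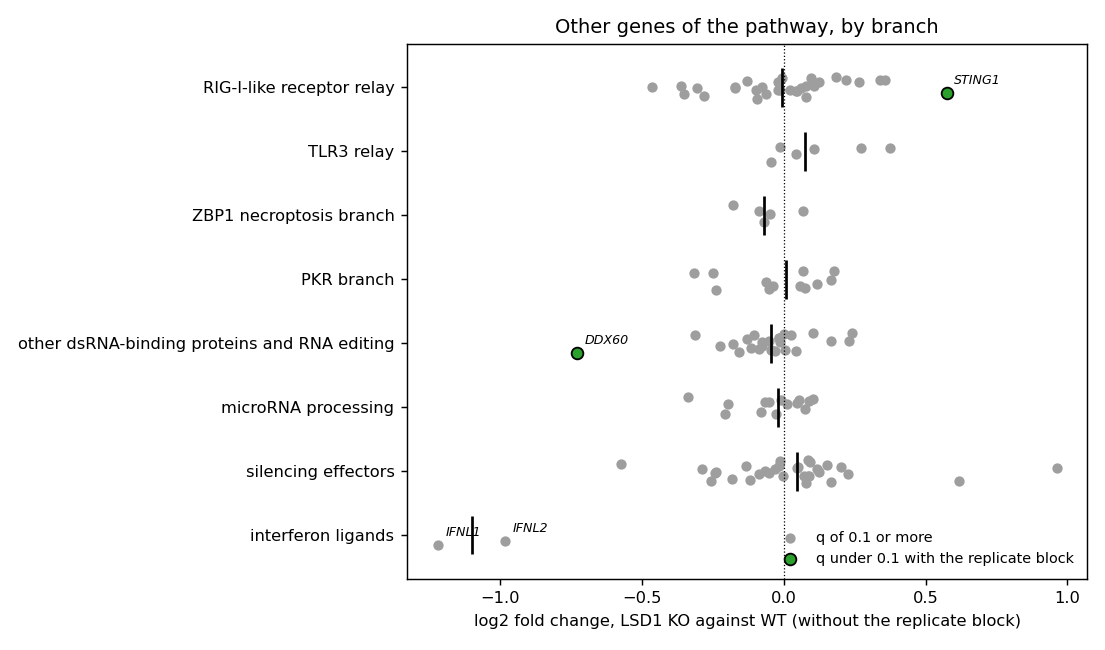
Log2 fold change of LSD1 KO against WT without the replicate block (x axis) for the tested genes of 8 pathway lists (y axis), 1 point per gene and a black bar at the median of each list. Green points passed a q value under 0.1 with the block, STING1 at 0.58 and DDX60 at -0.73, and the bars of the lists other than the interferon ligands lie between -0.069 and 0.074.

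Of the 10 interferon genes listed, some of which this pathway can switch on, 2 had enough counts to be tested, IFNL1 and IFNL2. IFNA1, IFNA2, IFNK, IFNW1 and IFNG had 0 counts in each library, and IFNB1 was counted 2, 1 and 1 times in the WT libraries and 1, 0 and 0 times in those of LSD1 KO. For the lambda interferon gene IFNL1, counts were 28, 42 and 19 in WT against 10, 24 and 4 in LSD1 KO. The counts overlapped between the groups, and the log2 fold change of -1.22 (standard error 0.65) did not pass (q value 0.999 from edgeR). For IFNL2 they were 7, 25 and 19 against 0, 19 and 6. Outside the pathway lists, 5 interferon-induced genes were looked at, IFIT1, IFIT2, IFIT3, OASL and ISG15, which were picked with their lower level in these libraries known and so are no count of interferon-induced genes. With the block, their log2 fold changes were -1.16, -1.58, -1.38, -1.16 and -0.75 (q values from 0.00159 to 0.0214 from edgeR), where 0.549% of all genes were called lower. Without the block none of the 5 passed (q values from 0.136 to 0.999 from edgeR).

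The genes whose profile over the 6 libraries was nearest to that of RIGI were sought among the 14800 genes with a mean of at least 1 CPM. Likeness was measured as the root mean square distance between centred log2(CPM + 0.5) values. CMPK2, a mitochondrial nucleotide kinase induced by interferon, was nearest at a distance of 0.082 on this scale. It was 3.44, 2.88 and 3.18 CPM in WT and 1.07, 1.73 and 1.098 CPM in LSD1 KO. PDLIM5 (0.12), OASL (0.17), VSNL1 (0.18) and ZNF514 (0.18) followed. The added 0.5 CPM narrows differences more for a gene as low as CMPK2 than for RIGI. In edgeR without the block, the log2 fold change of CMPK2 was -1.28, against -0.97 for RIGI and -0.82 for PDLIM5. The order of nearness without the added 0.5 was not tested. The search used the values of the comparison itself, so these genes are described and not tested.

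**Figure D5:**
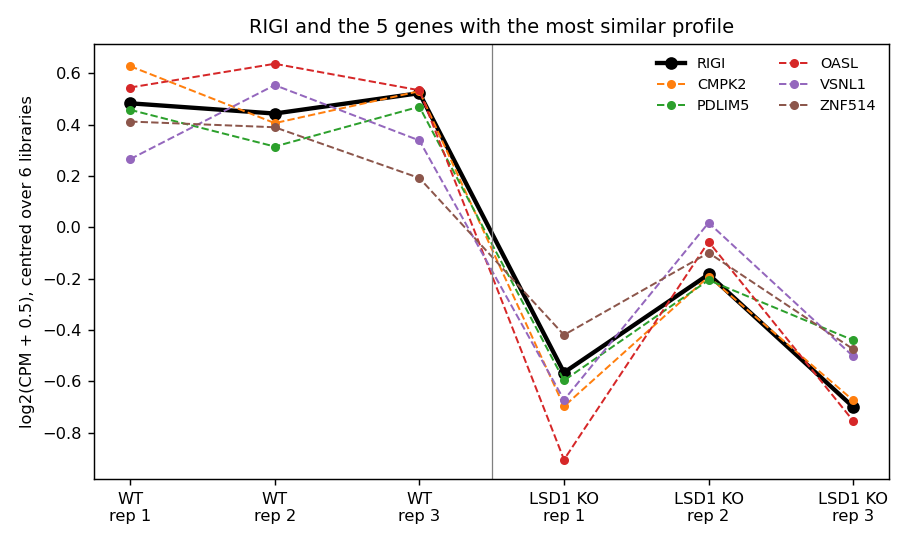
Centred log2(CPM + 0.5) of RIGI (black) and of the 5 genes nearest to it (dashed) in the 6 libraries (x axis, WT left and LSD1 KO right). In LSD1 KO, replicate 2 is the highest library for RIGI at 23.2 CPM and for CMPK2, PDLIM5, OASL, VSNL1 and ZNF514, and every WT library is above every LSD1 KO library for each of the 6 genes.

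The libraries held 25379279 to 29186963 counts, with overlap between the groups. The epithelial markers EPCAM, KRT8, KRT18, KRT19 and CDH1 were expressed, whereas KRT20, VIL1 and CDH17 had at most 16 counts in a library, and the 8 markers summed to between 2032 and 3799 CPM in WT and between 2408 and 3141 CPM in LSD1 KO. EPCAM fell with the block (log2 fold change -0.98, q value 0.0788 from edgeR). Of the 6 epithelial markers tested, 2 had a log2 fold change above 0 without the block, and the list ran from -0.97 to 0.42. Of 12 markers of other cell types, PECAM1 was not analysed here and PTPRC, CD3E, COL1A2, PDGFRA and CDH5 had at most 3 counts in a library. The list summed to between 38.3 and 44.6 CPM in WT and between 57.1 and 69.9 CPM in LSD1 KO, mostly from CD68 and COL1A1. COL1A1 rose with the block (log2 fold change 0.52, q value 0.0628 from edgeR). All 4 tested markers of this list had a log2 fold change above 0 without the block. The part of these markers in the RIGI result was not tested. In bulk RNA, fewer cells that express a gene and less of its RNA per cell cannot be told apart.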

How the data were processed

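PolyA RNA of 3 WT and 3 LSD1 KO HCT116 libraries was sequenced in paired ends after preparation with a kit that does not mark strand. Per the submitters' processing notes, the authors checked reads with FastQC, trimmed them with Trimmomatic 0.39 and quantified them with Salmon 1.4.0. The authors deposited expected counts per gene on GRCh38, and how transcripts were summed to genes is not given in the sources used here. The 6 libraries held 25379279 to 29186963 counts, and 3 counts corresponded to 0.0994 to 0.114 CPM. This floor and its limits cover counting error only.

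The deposited expected counts were whole numbers and were used unchanged. Low genes were filtered with edgeR's filterByExpr, which left 17672 of 60240 genes. LSD1 KO was compared with WT by the quasi-likelihood test of edgeR 4.0.16 (R 4.3.3) with TMM scaling, without a replicate block, and Benjamini-Hochberg q values under 0.1 were called. Single genes were also compared by the exact permutation test over libraries. The numbers of the labels were checked as pairs. Deviations from the group means of same-numbered WT and LSD1 KO libraries correlated at r = 0.512, 0.509 and 0.377 over 17672 genes. Those of other pairs correlated at -0.463 to 0.0159, but deviations in a group sum to 0, so these values are not an independent contrast. Given the same-numbered values, the fit with the replicate number as a block is given beside results it changed. The labels do not say what the numbers share. Other alternatives were RLE and upper quartile scaling, 2 other filters, DESeq2 1.42.0 with and without the block, a q value under 0.05 and each library left out. A length correction and the omission of both replicate 2 libraries were added after the data were seen. The code was tested on simulated data.

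The 10 genes and the pathway lists were chosen with earlier results of these data known. Besides the 10 genes and KDM1A, the text names per list each gene called with or without the block and the 2 genes with the largest rise and the 2 with the largest fall among those with a mean of at least 1 CPM, the 5 genes nearest to RIGI, and IFIT1, IFIT2, IFIT3, OASL and ISG15. RIPK3, the interferon genes, the AGO2 paralogs, DROSHA and the marker genes were named after their values were seen. Symbols, positions and promoter windows were taken from RefSeq (GRCh38.p14) and transcript lengths and exon overlaps from GENCODE. PECAM1 matched no row. Another marker of other cell types is not reported here.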

Additional observations from a re-analysis of the deposited data

How the results depend on the processing

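RIGI was lower in LSD1 KO under all 19 alternatives, with log2 fold changes of -1.17 to -0.85, and passed a q value under 0.1 in 8 of them. Without the block and with 1 library left out it never passed. The fit without the block called 1 gene of the whole table, 0 of the 10 genes and 0 of the other pathway genes. The replicate block gave 282, 1 and 2 calls, DESeq2's Wald test with the block 593, 1 and 6, and the length correction with the block 422, 1 and 4. Keeping every gene with a count gave 114 genes and 1 member, and DESeq2 without the block gave 95 and 1. Without both replicate 2 libraries 22 genes were called. Leaving out libraries or pairs gave 1 to 1055 genes, 0 to 3 members and 0 to 5 pathway genes. With the block, 428, 1055 and 198 genes were called without pairs 1, 2 and 3, and the fit without pair 2 called RIGI, IFIH1 and AGO2. LSD1 KO replicate 2 moved the count of genes most among single libraries, to 26. In the edgeR fits over all 6 libraries, the block changed no call among the 10 genes other than that of RIGI.

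The sign of 6 other genes turned in at least 1 alternative. With libraries left out, log2 fold changes ran from -0.26 to 0.46 for DHX58, -0.10 to 0.30 for MAVS, -0.49 to 0.072 for TLR3, -0.17 to 0.19 for EIF2AK2, -0.20 to 0.20 for ADAR and -0.37 to 0.14 for DICER1. Without both replicate 2 libraries DHX58 had -0.18, EIF2AK2 -0.0024 and ADAR -0.015. EIF2AK2 turned to -0.0017 with RLE and -0.0077 with upper quartile scaling, -0.00011 with every counted gene kept, -0.0039 with DESeq2, -0.0039 with DESeq2 and the block, -0.036 with the length correction and -0.044 with that correction and the block. ADAR turned to -0.0022 with upper quartile scaling, -0.013 with the length correction and -0.023 with the block added. MAVS turned only in fits without the block that left out 1 library of a pair, and it was above 0 in each fit with the block, from 0.050 to 0.11. The causes were not tested. Per kilobase of exon union, WT levels were 3.58 CPM for RIGI, 4.27 for IFIH1, 0.599 for DHX58, 26.1 for ADAR and 4.14 for DICER1, lower than per canonical length because the union is longer. Depth limits ZBP1, which had too few counts for the test without the block.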
